A study of Mus musculus with 6 samples.

Results

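The globin genes encode the protein chains of hemoglobin, the oxygen carrier of red cells. Their RNA was followed here in mouse acute myeloid leukemia (AML) cells with the *Phf6* gene intact or deleted. The genes were taken by symbol from the deposited table, and 7 of its 54532 genes had a matching symbol. These are the adult alpha-globins *Hba-a1* and *Hba-a2*, the adult beta-globins *Hbb-bs* and *Hbb-bt*, and the embryonic globins *Hba-x*, *Hbb-y* and *Hbb-bh1*. All 4 adult genes were read in every library and were higher in *VC Phf6,RE9a* cells, *Hba-a1* by 5.12-fold, *Hba-a2* by 6.23-fold, *Hbb-bs* by 1.89-fold and *Hbb-bt* by 2.55-fold. The 3 embryonic genes had at most 4 counts in any library.

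Adult hemoglobin joins a pair of alpha chains with a pair of beta chains, each holding a heme group that binds oxygen. The alpha genes lie in a cluster on mouse chromosome 11 and the beta genes in a cluster on chromosome 7, and each cluster is switched on in red cell precursors by distant enhancers that the erythroid factors GATA1, TAL1 and KLF1 bind. Primitive red cells of the yolk sac use the embryonic genes, and red cells of fetal liver and bone marrow use the adult ones.

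The leukemia was driven by RUNX1-ETO9a (RE9a), a short form of the RUNX1-ETO fusion protein, carried with GFP by a retrovirus. According to the study's methods, lineage-negative fetal liver cells of male mice were infected and passed serially through male recipients. GFP-positive leukemia cells sorted from bone marrow gave 3 libraries of *WT Phf6,RE9a* cells (WT below, replicates 1, 2 and 3), from mice with the floxed allele alone (Phf6 fl/y), and 3 of *VC Phf6,RE9a* cells (VC below, replicates 11, 12 and 13), from mice that also carried Vav1-Cre (Vav1-Cre;Phf6 fl/y), which is active in blood cells. Both groups carried the floxed allele, RE9a and GFP, and the labels give no treatment. The methods give the fetal livers as mid-gestation and the mice as young adults, and the labels give no age. The study's RNA-sequencing methods name mouse cells of the 2 groups and describe neither a sort nor a tissue. The recipients keep blood cells of their own, which carry no GFP. Whether the libraries of a group came from different mice or leukemias is not in the labels, and the p-values below measure only the spread between these libraries. Total counts lay between 15675358 and 16817994 per library. The targeted gene *Phf6* had 1044, 827 and 1142 counts in WT cells and 388, 314 and 331 in VC cells, a log2 fold change of -1.66. Levels are given as CPM, counts scaled to a common library size with TMM factors. A gene was called when edgeR's quasi-likelihood test gave it an adjusted p under 0.05, and SE stands for standard error. Of the 14169 genes tested, 21.5% were called higher in VC cells and 22.7% lower (44.2% in all), and over all of them the median log2 fold change was 0.01.

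The 2 adult genes of each chain are nearly the same in sequence, which decides how far their counts can be told apart. The last 100 bases of the 4 adult coding sequences are shown because they hold the base that differs within each pair. They were read from GENCODE M21 transcripts on GRCm38, 5′ to 3′ along the gene up to the stop codon, with that base in capitals.
Hba-a1 coding positions 330 to 429, chr11:32284292-32284391 (plus strand): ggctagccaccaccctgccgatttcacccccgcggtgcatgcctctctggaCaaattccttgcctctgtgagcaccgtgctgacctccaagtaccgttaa
Hba-a2 coding positions 330 to 429, chr11:32297109-32297208 (plus strand): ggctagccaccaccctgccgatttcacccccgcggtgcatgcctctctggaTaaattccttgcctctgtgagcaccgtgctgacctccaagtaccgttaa
Hbb-bs coding positions 345 to 444, chr7:103826665-103826764 (minus strand): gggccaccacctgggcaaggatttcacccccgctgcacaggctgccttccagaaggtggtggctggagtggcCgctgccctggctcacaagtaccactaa
Hbb-bt coding positions 345 to 444, chr7:103812656-103812755 (minus strand): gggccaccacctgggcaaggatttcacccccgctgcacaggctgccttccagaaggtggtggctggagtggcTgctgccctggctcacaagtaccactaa
Over all 429 coding bases, *Hba-a1* and *Hba-a2* differed only at C381T, where the first base is that of *Hba-a1* and positions are counted from the A of the ATG. Over all 444 coding bases, *Hbb-bs* and *Hbb-bt* differed only at C417T, given from *Hbb-bs* to *Hbb-bt*. The coding identity was 99.77% in the alpha pair and 99.78% in the beta pair. The embryonic genes were farther away, at 62.01% between *Hba-a1* and *Hba-x*, 74.32% between *Hbb-bs* and *Hbb-y* and 74.1% between *Hbb-bs* and *Hbb-bh1*. All windows of 150 bases, the read length, were compared between the annotated transcripts of each pair. Of these, 51.64% in *Hba-a1* and 34.32% in *Hba-a2* had no exact match in the sister transcript. In the beta pair these shares were 41.34% for *Hbb-bs* and 49.28% for *Hbb-bt*. The genome around the sister gene was not searched. The annotated stretch before the ATG is 196 bases in *Hba-a1* and 35 in *Hba-a2*. The alpha shares may thus overstate how far the copies can be told apart. How reads common to both copies were assigned is not given in the sources used here, so the split within a pair is uncertain, and each pair is also given as a sum.

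The promoters are shown because the adult genes of a chain moved together while the embryonic genes stayed at or near 0. RefSeq promoter windows matched 6 of the 7 genes, all but *Hbb-bh1*. The 250 bases before the RefSeq start site are printed 5′ to 3′ along the gene, on GRCm38.p6. Capitals mark every match on either strand to CACCC, the letters that KLF1 binds, to AGATAA or GATAA, letters of the GATA factors' motif, to CCAAT, and to TATAAA, the TATA box. GATAA is contained in AGATAA and was added to the search after the sequences were seen.
Hba-a1 promoter, chr11:32283422-32283671 (plus strand): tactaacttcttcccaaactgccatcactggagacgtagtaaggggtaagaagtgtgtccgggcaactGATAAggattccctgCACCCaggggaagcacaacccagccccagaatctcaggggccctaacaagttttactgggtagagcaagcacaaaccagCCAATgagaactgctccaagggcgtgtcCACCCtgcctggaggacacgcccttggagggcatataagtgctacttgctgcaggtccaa
Hbb-bs promoter, chr7:103827929-103828178 (minus strand): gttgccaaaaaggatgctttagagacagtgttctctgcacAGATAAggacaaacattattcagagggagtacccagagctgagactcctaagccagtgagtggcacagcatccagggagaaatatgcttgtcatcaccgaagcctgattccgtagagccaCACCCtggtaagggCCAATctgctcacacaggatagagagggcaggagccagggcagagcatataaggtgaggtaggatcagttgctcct
Hbb-bt promoter, chr7:103813924-103814173 (minus strand): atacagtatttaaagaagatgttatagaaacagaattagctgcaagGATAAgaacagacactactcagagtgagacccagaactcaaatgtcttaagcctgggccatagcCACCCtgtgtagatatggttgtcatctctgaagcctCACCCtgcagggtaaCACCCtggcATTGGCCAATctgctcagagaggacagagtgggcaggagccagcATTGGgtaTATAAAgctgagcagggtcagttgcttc
Hba-x promoter, chr11:32276350-32276599 (plus strand): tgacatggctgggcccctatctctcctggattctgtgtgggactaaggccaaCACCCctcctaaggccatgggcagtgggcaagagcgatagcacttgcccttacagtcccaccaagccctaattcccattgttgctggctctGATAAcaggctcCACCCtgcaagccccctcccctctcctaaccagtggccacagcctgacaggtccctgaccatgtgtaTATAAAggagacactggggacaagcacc
Hbb-y promoter, chr7:103853208-103853457 (minus strand): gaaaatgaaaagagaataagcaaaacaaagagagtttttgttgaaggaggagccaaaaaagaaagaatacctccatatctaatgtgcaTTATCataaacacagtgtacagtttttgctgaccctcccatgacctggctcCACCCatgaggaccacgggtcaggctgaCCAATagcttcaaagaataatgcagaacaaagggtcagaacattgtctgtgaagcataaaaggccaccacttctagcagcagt
With position -1 as the base before the start, CACCC began at -167 and -60 in *Hba-a1*, at -90 in *Hbb-bs*, and at -140, -104 and -89 in *Hbb-bt*. CCAAT began at -88 in *Hba-a1* and at -76 in *Hbb-bs*. GATAA began at -182 in *Hba-a1* and at -209 in *Hbb-bs*, there as part of AGATAA. The windows of *Hba-x* and *Hbb-y*, whose genes were not read above 3 counts, also held CACCC and GATAA. Over 32851 RefSeq promoters, 52.0% of windows held CACCC, 22.6% GATAA, 9.99% AGATAA, 33.9% CCAAT and 12.4% TATAAA. These matches describe the letters of the windows only. The windows of *Hba-a1* and *Hba-a2* shared an unbroken run of 247 bases, so the *Hba-a2* window is not printed. The longest run shared by *Hbb-bs* and *Hbb-bt* was 14 bases.

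The adult alpha-globins had the larger fold changes. *Hba-a1* (ENSMUSG00000069919, chr11:32283511-32284465, plus strand, 3 exons) had 4979, 3143 and 6806 counts in WT cells and 25878, 30053 and 26628 in VC cells. Every VC library lay above every WT library. Its level rose from 316 ± 99.5 to 1620 ± 116 CPM (SD, n = 3), which is a log2 fold change of 2.36 ± 0.23 (SE, adjusted p = 0.000225 by edgeR). *Hba-a2* (ENSMUSG00000069917, chr11:32296489-32297298, plus strand, 3 exons), which encodes the same kind of chain, had 566, 230 and 688 counts in WT cells and 1990, 4958 and 3034 in VC cells. The groups did not overlap, and the spread among VC libraries was wider than for *Hba-a1*. Its level went from 31.3 ± 13.8 to 196 ± 86.7 CPM (SD, n = 3), which is a log2 fold change of 2.64 ± 0.43 (SE, adjusted p = 0.00216 by edgeR). As a sum, the alpha pair had 5545, 3373 and 7494 counts in WT cells and 27868, 35011 and 29662 in VC cells. The summed level was 5.23-fold higher in VC cells, at 1816 ± 203 against 347 ± 113 CPM (log2 fold change 2.39 ± 0.24, SE, adjusted p = 0.000273 by edgeR).

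The adult beta-globins rose too, with smaller fold changes. *Hbb-bs* (ENSMUSG00000052305, chr7:103826534-103828096, minus strand, 3 exons), the globin with the most counts, had 23720, 14249 and 20884 counts in WT cells and 41590, 42650 and 36512 in VC cells. The lowest VC library lay above the highest WT library. Its level went from 1257 ± 287 to 2370 ± 174 CPM (SD, n = 3), which is a log2 fold change of 0.92 ± 0.18 (SE, adjusted p = 0.00461 by edgeR). *Hbb-bt* (ENSMUSG00000073940, chr7:103812524-103813996, minus strand, 3 exons) had 1911, 1581 and 1090 counts in WT cells and 4467, 4641 and 3772 in VC cells. The groups did not overlap. Its level went from 99.1 ± 29.9 to 253 ± 25.0 CPM (SD, n = 3), which is a log2 fold change of 1.35 ± 0.22 (SE, adjusted p = 0.00206 by edgeR). The beta pair as a sum was 1.93-fold higher in VC cells, at 2623 ± 199 against 1356 ± 296 CPM (log2 fold change 0.95 ± 0.17, SE, adjusted p = 0.00345 by edgeR). Thus 4 of the 4 adult genes were called higher in VC cells and had groups that did not overlap, where 21.5% and 28.9% of all genes tested did so. None was lower, and the groups lay apart with VC lower for 28.4% of the genes tested. A change of at least 2-fold with a call was reached by 9.95% of the genes tested, and *Hba-a1*, *Hba-a2* and *Hbb-bt* were among these.

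**Figure D1:**
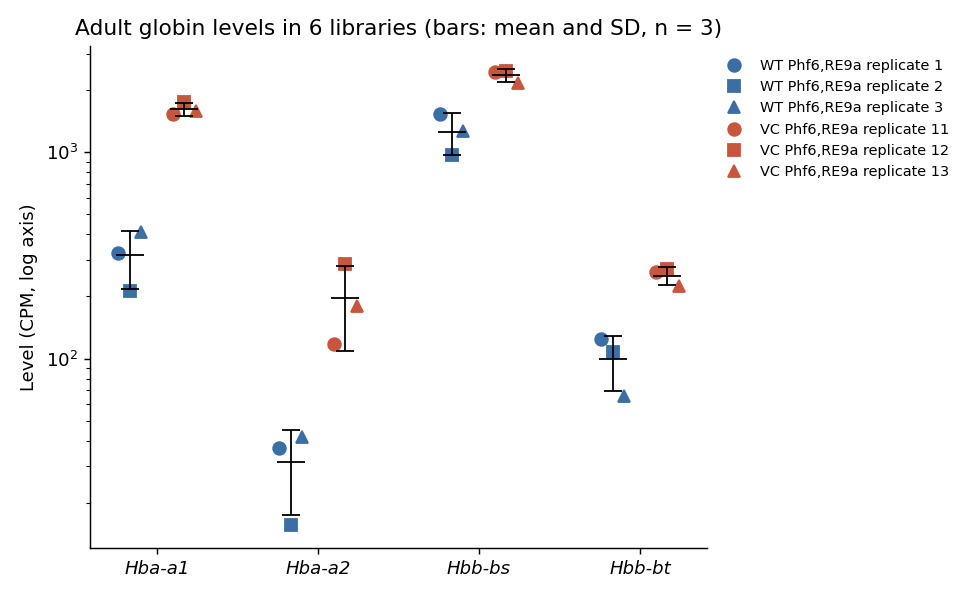
Level of the 4 adult globin genes in CPM on a log axis, with a point for each of the 3 *WT Phf6,RE9a* (WT) and 3 *VC Phf6,RE9a* (VC) libraries and bars for the mean and SD. For each gene all VC points lie above all WT points, and the group means go from 31.3 to 196 CPM for *Hba-a2*, 316 to 1620 for *Hba-a1*, 99.1 to 253 for *Hbb-bt* and 1257 to 2370 for *Hbb-bs*.

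Summed over the 7 genes, globin reads made up 0.185%, 0.123% and 0.177% of counts in WT libraries and 0.453%, 0.511% and 0.436% in VC libraries. These shares were a small part of each library, and taking globin counts out of the library totals left the log2 fold change of *Hba-a1* at 2.36. Within WT cells, replicate 2 had the lowest count of *Hba-a1*, *Hba-a2* and *Hbb-bs*, and replicate 3 the lowest of *Hbb-bt*. For levels between genes, the deposited FPKM, which divide by gene length, are needed. In WT cells *Hbb-bs* was at 1627 ± 378 FPKM, *Hba-a1* at 387 ± 121, *Hbb-bt* at 140 ± 42.9 and *Hba-a2* at 46.7 ± 20.6 (SD, n = 3). In VC cells the order was *Hbb-bs* at 3047 ± 239, *Hba-a1* at 1970 ± 150, *Hbb-bt* at 355 ± 36.9 and *Hba-a2* at 290 ± 130. The last 2 of this order overlapped over the VC libraries, and the other neighbours in each order did not.

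The balance of alpha to beta reads was higher in VC libraries. Alpha-globin counts per beta-globin count were 0.216, 0.213 and 0.341 in WT libraries and 0.605, 0.740 and 0.736 in VC libraries. The means were 0.257 ± 0.0730 and 0.694 ± 0.0770 (SD, n = 3), and the groups did not overlap. The difference was 1.46 on the log2 scale, a ratio 2.76-fold higher in VC cells (exact 2-sided permutation test, p = 0.1, the smallest value that 3 against 3 libraries can give). With FPKM, the ratio was 0.246 ± 0.0707 in WT cells and 0.666 ± 0.0778 in VC cells. Beta-globin reads thus outnumbered alpha-globin reads in all 6 libraries, and the log2 gap was smaller in VC cells.

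The split within each pair showed no such separation. *Hba-a2* took 10.2% of alpha reads in WT replicate 1 (95% Wilson interval 9.44% to 11.03%), 6.82% in replicate 2 (6.02% to 7.72%) and 9.18% in replicate 3 (8.55% to 9.86%). In VC cells it took 7.14% in replicate 11 (6.84% to 7.45%), 14.2% in replicate 12 (13.8% to 14.5%) and 10.2% in replicate 13 (9.89% to 10.6%). The groups overlapped, and the range within each group was wider than these intervals, which cover counting error only. The means of 8.74% and 10.5% differed by 1.78 percentage points (exact 2-sided permutation test, p = 0.4). Without VC replicate 12 the difference was -0.051 points. *Hbb-bt* took 7.46%, 9.99% and 4.96% of beta reads in WT libraries and 9.70%, 9.81% and 9.36% in VC libraries. These also overlapped, with a difference of 2.16 percentage points (exact 2-sided permutation test, p = 0.4).

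**Figure D2:**
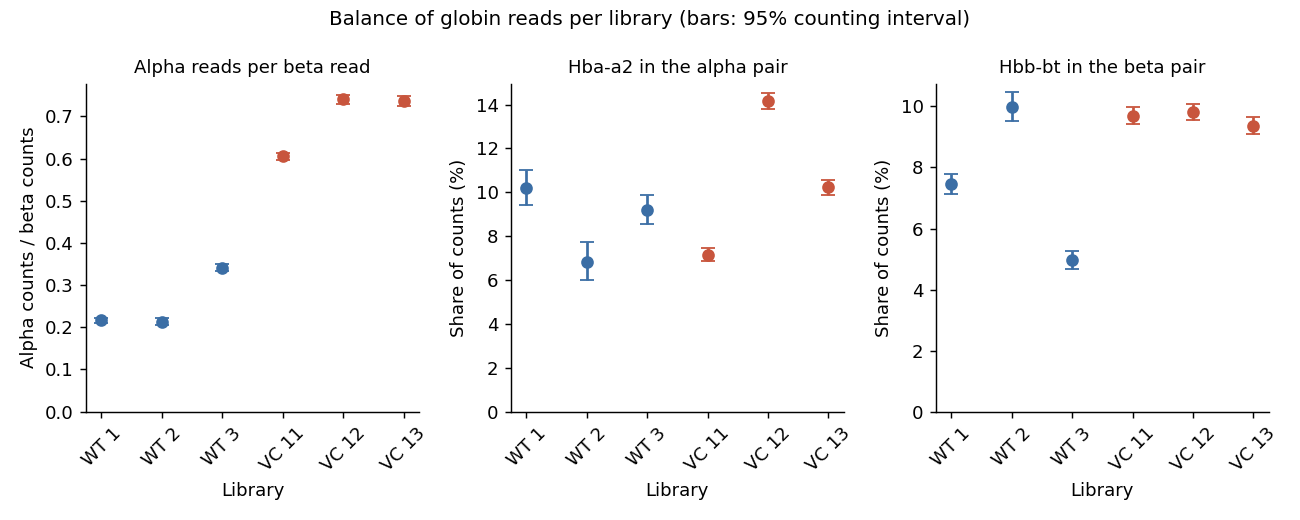
Alpha-globin counts per beta-globin count (left), share of *Hba-a2* in alpha counts (middle) and share of *Hbb-bt* in beta counts (right) in each of the 6 libraries, where bars are 95% intervals from counting error alone. The 3 VC libraries sit at 0.605 to 0.740 alpha counts per beta count, above the 0.213 to 0.341 of the WT libraries, and the groups overlap in both other panels.

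The embryonic globins were at or near 0 in both groups. *Hba-x* (chr11:32276400-32278116, plus strand), the zeta chain of the embryo, had no counts in the 6 libraries, where 3 counts, the limit that a count of 0 allows, come to between 0.175 and 0.204 CPM. *Hbb-y* (chr7:103851749-103853216, minus strand), an embryonic beta-like chain, had 1, 2 and 3 counts in WT cells and 1, 1 and 2 in VC cells. *Hbb-bh1* (chr7:103841637-103843164, minus strand), the other embryonic beta-like chain, had 0, 0 and 2 counts in WT cells and 1, 4 and 0 in VC cells. All 3 fell under the count filter, so no fold change or test is given, and a difference was not detectable at this depth. Of 9 further listed globin genes, 2 passed the filter, and the pseudogene *Hbb-bh0*, not on that list, had no counts in the 6 libraries. The theta-globin *Hbq1b*, between the adult alpha genes, had 9, 10 and 15 counts in WT cells and 16, 57 and 35 in VC cells. Its log2 fold change was 1.53 ± 0.50 (SE, adjusted p = 0.0384 by edgeR), which passed the threshold narrowly. Its adjusted p was over 0.05 when any library but VC replicate 11 was left out, and without VC replicate 12 the log2 fold change was 1.05 (adjusted p = 0.145 by edgeR). *Hbb-bh2*, a beta-like gene, had 17, 31 and 23 counts in WT cells and 45, 21 and 30 in VC cells, which overlap (log2 fold change 0.30, adjusted p = 0.574 by edgeR).

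The transcription factors that act at the globin clusters did not move as a block. Of 17 listed regulators, 9 rose, 2 fell and 6 did not pass the test, and the median log2 fold change was 0.45. Over all genes tested, 21.5% were called higher and 22.7% lower, so the 2 that fell were a smaller share than that. *Klf1*, the factor that binds CACCC boxes and activates adult beta-globin, was at 65.2 ± 10.2 CPM in WT cells and 158 ± 3.84 in VC cells, which is a log2 fold change of 1.27 ± 0.12 (SE, adjusted p = 0.000179 by edgeR). *Lmo2*, which bridges the GATA1 and TAL1 complex, rose by 1.88 on the log2 scale, from 90.4 ± 16.9 to 332 ± 20.7 CPM. Its partner *Ldb1*, which loops the enhancers of the beta cluster to its promoters, rose by 0.46. *Gata1*, the main erythroid GATA factor, was at 175 ± 19.8 CPM in WT cells and 190 ± 6.78 in VC cells, and the groups overlapped (log2 fold change 0.12 ± 0.10, SE, adjusted p = 0.375 by edgeR). *Tal1* stood at a log2 fold change of -0.23 (adjusted p = 0.0694 by edgeR). *Gata2*, the GATA factor of progenitors and mast cells, fell by 0.71 on the log2 scale, from 1401 ± 225 to 859 ± 122 CPM, and *Myb*, a progenitor factor, fell by 0.35. Of the factors known to silence embryonic globins in adult cells, *Sox6* rose by 1.57, from 43.5 ± 5.60 to 129 ± 21.8 CPM, while *Bcl11a* stood at a log2 fold change of 0.06 (adjusted p = 0.706 by edgeR) and *Zbtb7a* at 0.20 (adjusted p = 0.0784 by edgeR). *Nfe2*, which binds the enhancers of both clusters, rose by 1.31. With VC replicate 11, 12 or 13 left out, 1 regulator was called lower, and with WT replicate 2 left out, 3 were.

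Of 15 listed genes for heme, the group that each globin chain carries, 13 rose, 0 fell and 2 did not pass. The median log2 fold change was 0.70. Among all genes tested, 21.5% were called higher and 22.7% lower. *Alas2*, the erythroid enzyme of the first step of heme synthesis, went from 34.0 ± 10.8 to 142 ± 21.7 CPM, which is a log2 fold change of 2.06 ± 0.23 (SE, adjusted p = 0.000409 by edgeR). *Alas1*, which does that step in other cells, stood at 0.42 (adjusted p = 0.251 by edgeR). Of the next enzymes, *Uros* rose by 1.89, *Urod* by 1.01 and *Cpox* by 1.00 on the log2 scale. *Fech*, which puts iron into the ring, rose by 0.70. *Abcb10*, which holds the mitochondrial iron importer in place, rose by 1.20, from 232 ± 16.3 to 534 ± 22.1 CPM. *Tfrc*, the receptor for iron-loaded transferrin, rose by 0.71. *Eif2ak1*, the kinase that slows globin translation when heme is short, rose by 0.62. The other gene that did not pass was *Slc25a38*, a mitochondrial glycine carrier (log2 fold change 0.31, adjusted p = 0.0828 by edgeR).

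Of 26 listed genes of red cell precursors, 25 were in the table and 24 were tested. Of these, 19 rose, 1 fell and 4 did not pass, where 21.5% of all genes tested were called higher and 22.7% lower. The median log2 fold change was 1.37. *Slc4a1*, the anion exchanger of the red cell membrane, went from 75.2 ± 31.6 to 655 ± 160 CPM, which is a log2 fold change of 3.12 ± 0.33 (SE, adjusted p = 0.000328 by edgeR). *Epor*, the erythropoietin receptor, rose by 1.38. The membrane skeleton genes *Epb42*, *Tmod1*, *Ank1* and *Sptb* rose by 2.35, 1.95, 1.17 and 1.09 on the log2 scale, while *Epb41*, *Add2* and *Dmtn* did not pass, at 0.17, -0.78 and -0.33. *Pklr*, the red cell pyruvate kinase, did not pass either, at -0.72. Blood group genes rose by 2.37 for *Rhd*, 1.78 for *Ermap* and 0.92 for *Rhag*, and the carbonic anhydrases *Car1* and *Car2* rose by 1.07 and 1.10. *Tspo2*, a cholesterol-binding protein of erythroblasts, fell by 0.57. With VC replicate 12 left out, 2 genes of the list were called lower. *Icam4* had no counts in the 6 libraries. Summed over the list, the level was 2609 to 3526 CPM in WT libraries and 7167 to 7814 in VC libraries. More cells of the red cell lineage and more red cell RNA in each cell cannot be told apart in these bulk libraries.

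Genes of late maturation and of clearance of organelles were called in both directions, at shares near those of all genes tested (21.5% higher and 22.7% lower). Of 8 listed genes, 7 were tested, of which 2 rose, 2 fell and 3 did not pass, and the median log2 fold change was -0.23. *Ube2l6*, an enzyme for the ubiquitin-like ISG15, rose by 0.87, and *Ube2o*, a ubiquitin enzyme that clears proteins from reticulocytes, rose by 0.50. *Bnip3l*, needed to clear mitochondria from reticulocytes, fell by 0.49, and *Tent5c*, a poly(A) polymerase, fell by 1.14. With VC replicate 13 left out, 1 gene was called lower. The summed level of this list overlapped between the groups, at 720 to 779 CPM in WT libraries and 729 to 815 in VC libraries.

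**Figure D3:**
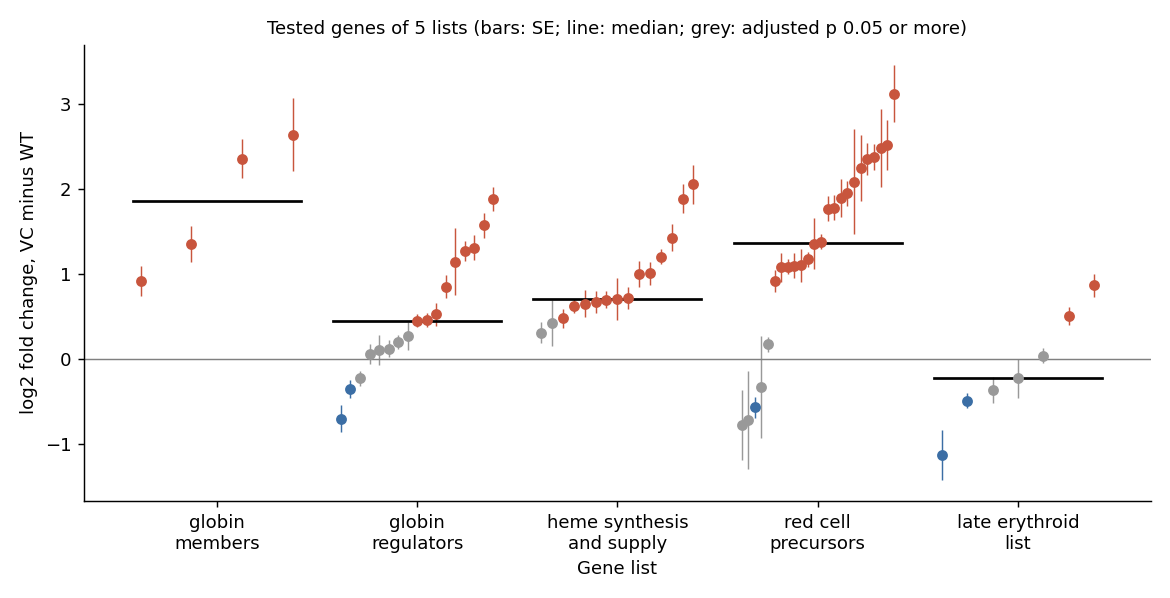
Log2 fold change, VC minus WT, of the tested genes of 5 lists, with a point per gene, bars for the standard error, a line for the median of each list, red for genes called higher, blue for lower and grey for genes that did not pass an adjusted p of 0.05. Medians are 0.45 for regulators, 0.70 for heme genes, 1.37 for red cell precursors and -0.23 for the late erythroid list, and the 4 adult globins lie between 0.92 and 2.64.

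Markers of other blood cells moved between the same libraries. The counts below stand beside 21.5% called higher and 22.7% called lower over all genes tested. All 10 listed neutrophil genes rose, and the median log2 fold change was 2.96. Their summed level was 173 to 542 CPM in WT libraries and 1058 to 3750 in VC libraries. For *S100a8*, a calcium-binding protein of neutrophils, the log2 fold change was 3.20, or 3.80 without WT replicate 3, and for *Camp*, a granule peptide, 3.39. Of 9 listed mast cell and basophil genes, 8 fell and 1 did not pass, and the median log2 fold change was -2.06. Their summed level was 18443 to 29723 CPM in WT libraries and 6173 to 6754 in VC libraries. *Cpa3*, a mast cell protease, fell by 4.62 and *Kit*, the stem cell factor receptor, by 3.15. Of 5 listed B cell genes, 4 were tested and rose, at summed levels of 0.611 to 1.10 CPM in WT libraries and 8.50 to 24.6 in VC libraries. Defining markers of mast cells and neutrophils were thus read in all 6 libraries of cells labelled as leukemia cells. Over VC replicates 11, 12 and 13, the summed neutrophil level was 3750, 2417 and 1058 CPM. The summed globin level there was 4365, 4796 and 4156 CPM, and that of red cell precursors 7245, 7814 and 7167 CPM. Over WT replicates 1, 2 and 3, the summed neutrophil level was 223, 173 and 542 CPM. Globins there summed to 2024, 1303 and 1784 CPM, and red cell precursors to 2785, 2609 and 3526 CPM. Replicate 2 was the lowest WT library in each, and replicate 3 the highest for neutrophils and red cell precursors. The part of these other cells in the globin result was not tested.

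**Figure D4:**
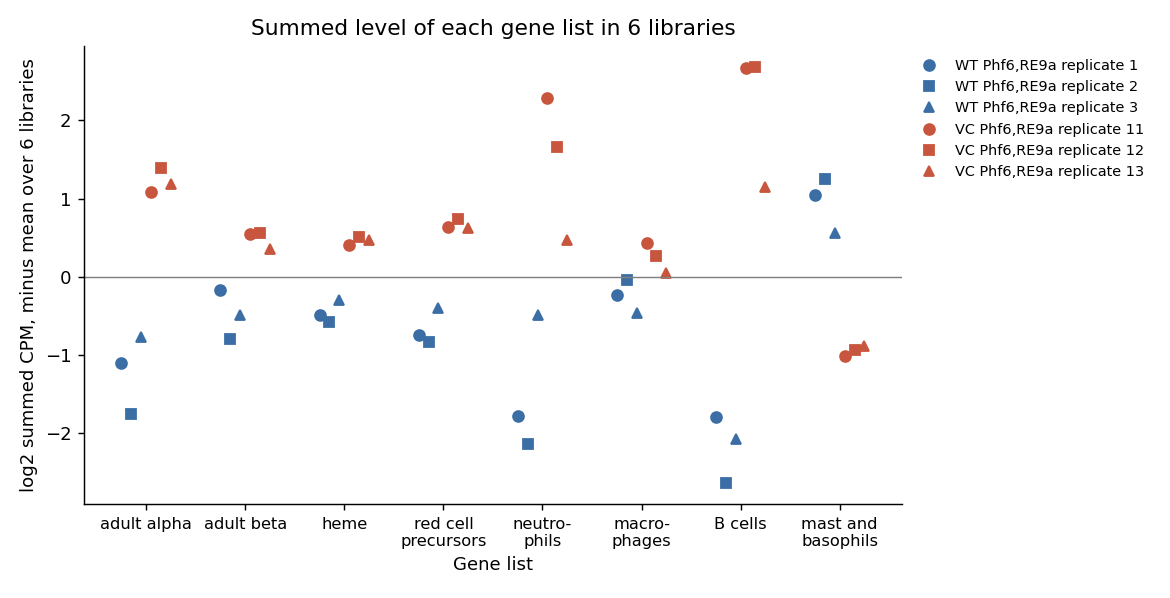
Summed level of each gene list in the 6 libraries, as log2 summed CPM minus the mean over the libraries, with a point per WT or VC library. The VC points of globins, heme genes and red cell precursors lie close together above the WT points. Neutrophil points spread from 1058 to 3750 CPM within VC and from 173 to 542 CPM within WT. The VC points of mast cells and basophils lie below WT.

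Genes around the alpha cluster were called higher, lower or not at all, and they are too few to describe the region as a whole. Over all genes tested, 21.5% were called higher and 22.7% lower. The start of a gene is taken here as its lower coordinate, whatever its strand. Of 7 genes other than globins that start within 100 kb, 1 was under 1 CPM in both groups. The introns of *Nprl3* hold the main enhancers of the alpha-globin genes. It lies on the minus strand, so its lower coordinate, at -57.9 kb from that of *Hba-a1*, is its 3′ end. *Nprl3* stood at 59.2 and 58.1 CPM, which is a log2 fold change of -0.03 ± 0.11 (SE, adjusted p = 0.877 by edgeR). *Mpg*, a DNA repair enzyme gene that overlaps *Nprl3* on the other strand, stood at -0.17 (adjusted p = 0.581 by edgeR), and since strand use in counting is not given here, reads of the 2 may be mixed. *Rhbdf1* stood at -0.40 (adjusted p = 0.102 by edgeR). Farther out, *Snrnp25*, a spliceosome gene, rose by 0.76 and *Il9r*, the interleukin 9 receptor, by 0.91, while *Sh3pxd2b*, on the far side of the cluster, fell by 1.96. Around the beta cluster 15 of 16 such genes were under 1 CPM in both groups. Of these, 13 were olfactory receptor genes with at most 4 counts in any library. The exception was the pseudogene *Dnajc19-ps* (log2 fold change 0.34, adjusted p = 0.439 by edgeR).

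**Figure D5:**
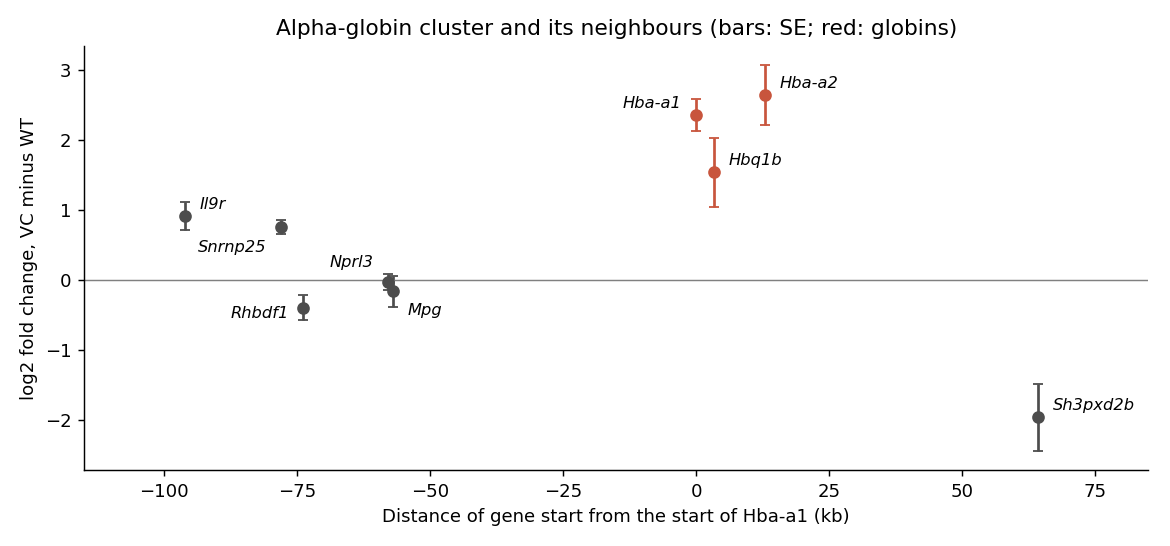
Log2 fold change, VC minus WT, of the tested genes around the alpha-globin cluster, with bars for the standard error. The horizontal axis gives the distance in kb of each gene's lower coordinate, whatever its strand, from that of *Hba-a1*. *Hba-a1* (2.36) and *Hba-a2* (2.64) stand above *Nprl3* (-0.03), *Mpg* (-0.17) and *Rhbdf1* (-0.40), and *Sh3pxd2b* (-1.96) lies lowest.

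Patterns over the libraries were compared by the root mean square difference in log2 CPM, each gene centred on its mean over the 6 libraries, over the 13032 tested genes above 1 CPM on average. The 5 genes most like *Hbb-bs* were *Fam161b* (0.062), *Chchd1* (0.085), *Lsm7* (0.086), *Csf2ra* (0.089) and *Bola3* (0.091). The other adult globins were farther, with *Hbb-bt* at 0.39 (rank 2485), *Hba-a1* at 0.76 (rank 9234) and *Hba-a2* at 0.98 (rank 10872). For *Hba-a1*, a comparison added after its values were seen, the nearest genes were *Epb42* (0.084), *Acp5* (0.133), *Zfp185* (0.151), *Rhd* (0.152) and *Lrrc49* (0.156). *Epb42* and *Rhd* are red cell membrane genes. With 6 libraries in 2 groups, genes with a like change between the groups score as alike.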

How the data were processed

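Gene values of 3 *WT Phf6,RE9a* (WT) and 3 *VC Phf6,RE9a* (VC) libraries were taken from the deposited table. Libraries were made with a TruSeq kit, per the labels, and read in paired ends on an Illumina NovaSeq, per the study's methods. The authors deposited raw read counts per Ensembl gene and FPKM values scaled by library and gene length. They also deposited their own comparison, which holds p-values, log2 fold changes and a normalized signal per group and was not used. The submitters' processing notes name Bowtie 0.12.0 and the build mm8, but start and end of all 7 genes match GENCODE M21 on GRCm38, so coordinates are given on GRCm38. The counting tool and strand setting are not given in the sources used here.

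In R 4.3.3, edgeR 4.0.16 was run on the counts with filterByExpr, TMM and its quasi-likelihood test, and p was adjusted by Benjamini-Hochberg over the 14169 genes tested. Standard errors are the log2 fold change over the square root of F. CPM use the TMM library sizes, and the 95% intervals and the limit of 3 counts cover counting error only (no molecular identifiers are named in the sources used here, and reads then are not independent molecules). Ratios of counts were compared with exact permutation tests in SciPy 1.17.1. Alternatives were DESeq2 1.42.0, RLE factors, limma 3.58.1 on log2(FPKM + 1), a minimum of 10 counts per library, no filter, globin counts out of the library totals and each library left out. Figures were drawn with matplotlib 3.10.9.

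The globin genes and the lists were chosen with earlier results of these data known. Named were *Phf6*, all globin members, from each list the 3 highest genes by mean CPM and the 3 of smallest p, fixed red cell genes, neighbours within 100 kb and the 5 nearest patterns. Further genes of the lists were named after their values were seen. Lists are described by counts and medians, with no set test. Some listed genes are not reported here by name.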

Additional observations from a re-analysis of the deposited data

How the results depend on the processing

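No paired analysis was run, because the groups share no replicate numbers and the labels used here name no pairs of libraries. Over 83 results and 974 alternative values, 930 kept their direction and their side of the threshold or moved by little. The 4 adult globins kept both under all 12 alternatives each, with log2 fold changes of 2.13 to 2.59 for *Hba-a1*, 2.25 to 2.91 for *Hba-a2*, 0.75 to 1.08 for *Hbb-bs* and 1.12 to 1.54 for *Hbb-bt*. The highest adjusted p among them was 0.0484, for *Hbb-bs* with limma on log2(FPKM + 1). The log2 ratio of alpha to beta reads differed by 1.35 to 1.69. The pairs differed by 2.15 to 2.62 (alpha) and 0.80 to 1.12 (beta). Numbers of genes called over the whole table ran from 2179 to 3132 higher and from 2511 to 3409 lower.

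Small lists changed more, and the cause was not tested except where fewer genes were tested. With at least 10 counts in every library, which leaves fewer genes, 0 other globins, 0 megakaryocyte genes and 0 B cell genes were higher. With limma, 0 other globins were higher. Without a filter, 1 macrophage gene was higher. With each library left out in turn, other globins higher ran from 0 to 1, regulators lower from 1 to 3, red cell precursors lower from 1 to 2, late erythroid genes lower from 1 to 2, macrophage genes higher from 1 to 3 and lower from 0 to 2. *Hbb-bh2* turned to -0.020 without VC replicate 11, and *Pf4* to 0.014 with limma, 0.49 without WT replicate 1 and 0.22 without VC replicate 13, with ranges over libraries left out of -0.020 to 0.58 and -0.44 to 0.49. Neither passed the threshold. At this depth, a level under 0.175 to 0.204 CPM, depending on the library, could not be told from 0.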

Other observations

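Macrophages of the marrow nurse red cell precursors and take up the nuclei they expel, and platelets and T cells are other sources of RNA in marrow. Over all genes tested, 21.5% were called higher and 22.7% lower. Of 11 listed macrophage genes, 3 rose, a share near that of all genes, 0 fell and 8 did not pass. Their summed level was 41.2 to 55.5 CPM in WT libraries and 58.9 to 77.0 in VC libraries. *Vcam1*, an adhesion protein of these macrophages among others, rose by 1.53 on the log2 scale, from 4.38 ± 1.85 to 12.7 ± 1.51 CPM (SD, n = 3), and *Cd68* and *Mertk* passed narrowly, with adjusted p of 0.0472 and 0.0409 by edgeR. Without WT replicate 1, VC replicate 11 or VC replicate 12, 1 of the 11 was higher. *Hmox1*, the enzyme that breaks down heme, stood at -0.82 (adjusted p = 0.0997 by edgeR). Of 6 listed megakaryocyte and platelet genes, 4 were tested, of which *Gp9* rose, from 0.110 to 1.20 CPM, *Itga2b* fell by 4.05 and *Gp1ba* fell by 1.53, and *Pf4*, at 1.38 and 1.33 CPM, did not pass. None of the 5 listed T cell genes passed the count filter, and their summed level was at most 3.19 CPM in any library.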
